A study of Mus musculus with 8 samples.

Results

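The cytosolic ribosomal proteins are the protein parts of the ribosome that translates nuclear-encoded mRNA. On these arrays they were taken as the genes whose probe sets carry a single symbol formed from Rpl or Rps and a number, with or without the endings a, l or x, together with the stalk genes Rplp0, Rplp1 and Rplp2. Of 12393 genes with a single symbol, 47 met that rule: 24 of the large subunit, 21 of the small subunit and the 2 stalk genes Rplp0 and Rplp2. They had 98 probe sets in all, and each gene was read from its probe set with the highest mean log2 signal over the arrays. The muscle-type paralogue Rpl3l lay below the detection floor, a signal of 141.88, on every array, with signals of 58.0, 11.1, 21.3 and 6.0 on the knockout-labelled arrays and 6.4, 10.7, 29.2 and 30.1 on the wild-type-labelled arrays at 0, 4, 8 and 24 h. The other 46 genes were carried through every comparison, beside 8457 genes in all that passed the same filter.

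The RNA came from mouse splenic T cells, enriched with a pan-T-cell magnetic kit from Gfi1-knockout mice and from wild-type mice, both on the C57Bl/6 background. Gfi1 is a zinc finger transcriptional repressor of blood cells. Cells of each genotype were collected untreated (0 h) or after 4, 8 and 24 h with anti-CD3 and anti-CD28 antibodies at 2 µg/ml, which engage the T cell receptor and its co-receptor. There was 1 array for each genotype and time, 8 in all, so no genotype difference at a single time had a replicate and none was given a p-value. The titles of a genotype's 4 arrays share 1 number, which differs between the genotypes, so genotype and source of the cells cannot be told apart. The labels give no age or sex and do not say what that number counts, and there was no culture without antibodies, so antibody and time in culture cannot be told apart. The Gfi1 probe set did not separate the genotypes: its signal was 2316, 5979, 6459 and 9885 on the knockout-labelled arrays and 882, 6359, 5259 and 3966 on the wild-type-labelled arrays. What part of the gene was deleted is not given in the labels, so this probe set checks nothing, and arrays are named here by their labels.

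Each ribosome is built from a small subunit, which decodes mRNA, and a large subunit, which joins amino acids. Most of its proteins are needed in equal numbers, and their mRNAs are among the most abundant in any dividing cell. Most of these mRNAs begin with a run of pyrimidines called a terminal oligopyrimidine (TOP) tract, through which mTOR signalling and the protein Larp1 set how much of the mRNA is translated. In T cells, antigen receptor signals raise ribosome production ahead of cell growth and division.

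Marker genes of several cell types differed between the genotypes, and these values stand beside every genotype result that follows. Markers of T cells were lower in knockout-labelled cells in 12 of 12 tested genes at 0 h, 11 at 4 h, 11 at 8 h and 9 at 24 h. Their summed signal ranged over 25324 to 61949 on the knockout-labelled arrays and 66664 to 92529 on the wild-type-labelled arrays, and was close between the genotypes at 24 h, at 61949 and 67880. None of the 12 was below the floor on any array. Granulocyte precursor markers were higher in 10, 10, 11 and 10 of 13 tested genes at 0, 4, 8 and 24 h, with sums of 6688 to 177056 on the knockout-labelled arrays and 1006 to 16918 on the wild-type-labelled arrays. Monocyte markers were higher in 9, 10, 10 and 10 of 10, with sums of 16886 to 60063 on the knockout-labelled arrays and 1376 to 8932 on the wild-type-labelled arrays. In RNA from bulk samples, fewer cells of a type and less RNA per cell cannot be told apart. The part of cell makeup in the ribosomal protein values was not tested.

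Most ribosomal protein probe sets were among the bright ones of each array. The median signal of the 46 genes was 28211, 32134, 33668 and 42539 on the knockout-labelled arrays at 0, 4, 8 and 24 h, and 38893, 44954, 48998 and 35352 on the wild-type-labelled arrays. The knockout-labelled arrays were thus the lower ones at 0, 4 and 8 h and the higher one at 24 h. Of the 47 genes, 35 had a mean log2 signal over 13 and the other 12 lay below 12, with none between. The 5 with the highest means were Rps3a1, Rps29, Rpl38, Rpl41 and Rplp2. Of the 12 dim genes, 8 (Rpl12, Rpl14, Rpl27a, Rpl37, Rpl39, Rps25, Rps27 and Rps6) also appear on probe sets that list several symbols and that read at mean log2 signals of 14.74 to 15.73. A dim single-symbol probe set for these 8 is therefore not a measure of how abundant the mRNA is. Signals of different probe sets are not levels per length, so the order of their brightness is not an order of mRNA abundance.

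**Figure D1:**
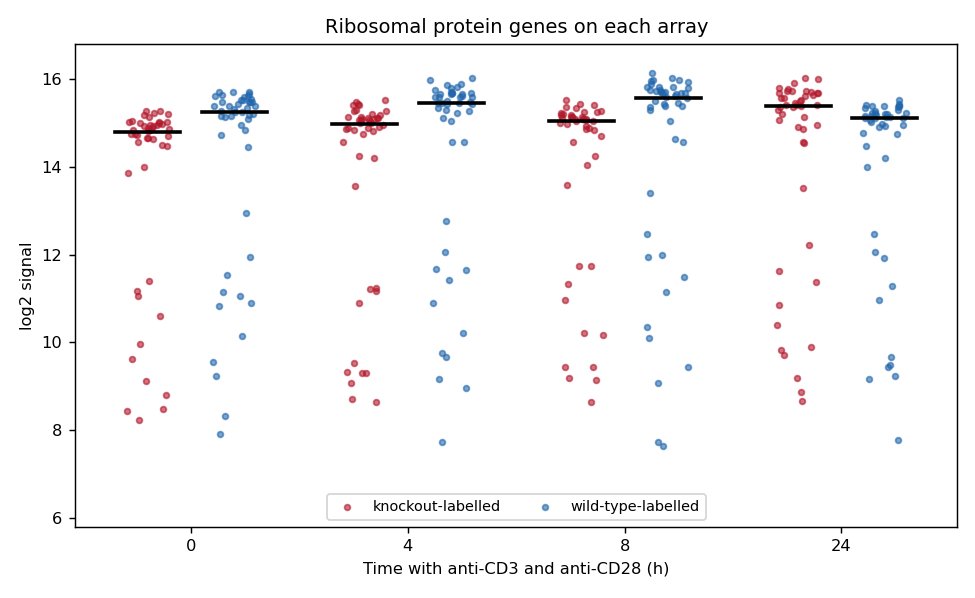
Log2 signal (vertical axis) of the 46 ribosomal protein genes on each of the 8 arrays, with time on the horizontal axis, knockout-labelled arrays in red to the left of wild-type-labelled arrays in blue; each point is a gene and the black bar is the median. The median bar is lower in red at 0, 4 and 8 h and higher in red at 24 h.

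The first comparison was between the genotypes at each time. Ribosomal protein genes were lower in knockout-labelled cells in untreated cells and through 8 h of stimulation, and higher at 24 h. At 0 h, 43 of 46 were lower, against 48.4% of all genes tested, and 3 were higher, against 45.2%. At 4 h it was 42 (49.2% of all genes) and at 8 h 41 (54.3%). At 24 h, 37 of 46 were higher, where 48.5% of all genes were. The median log2 difference, knockout-labelled minus wild-type-labelled, was -0.45, -0.47, -0.57 and 0.31 at the 4 times, beside 0.00, 0.00, -0.08 and 0.00 over all genes.

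The size of the shift was small and even from gene to gene. The quartiles of the genes were -0.53 and -0.38 in untreated cells, -0.53 and -0.37 after 4 h, -0.62 and -0.46 after 8 h, and 0.11 and 0.45 after 24 h. A difference of at least 1.5-fold (0.585 on the log2 scale) was reached downwards by 7 genes at 0 h, 6 at 4 h, 16 at 8 h and 3 at 24 h, where 17%, 17.5%, 20.6% and 15% of all genes did. Upwards it was reached by 1, 2, 2 and 3 genes, against 17.4%, 20.6%, 18.2% and 18.3% of all genes. As shares of the family the genes at least 1.5-fold lower were 15.2%, 13%, 34.8% and 6.52%, above the share of all genes at 8 h and below it at the other times. At 2-fold, 2, 2, 1 and 1 were lower (6.75%, 6.56%, 6.66% and 5.06% of all genes) and 0, 0, 1 and 1 higher (8.08%, 11.8%, 10.7% and 9.18%). A pattern picked out after the values were seen, lower at 0, 4 and 8 h and higher at 24 h, was met by 33 of 46, where 11.6% of all genes met it. The 4 differences come from separate pairs of arrays but from the same numbered source in each genotype, and genes that share arrays are not replicates of each other.

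**Figure D2:**
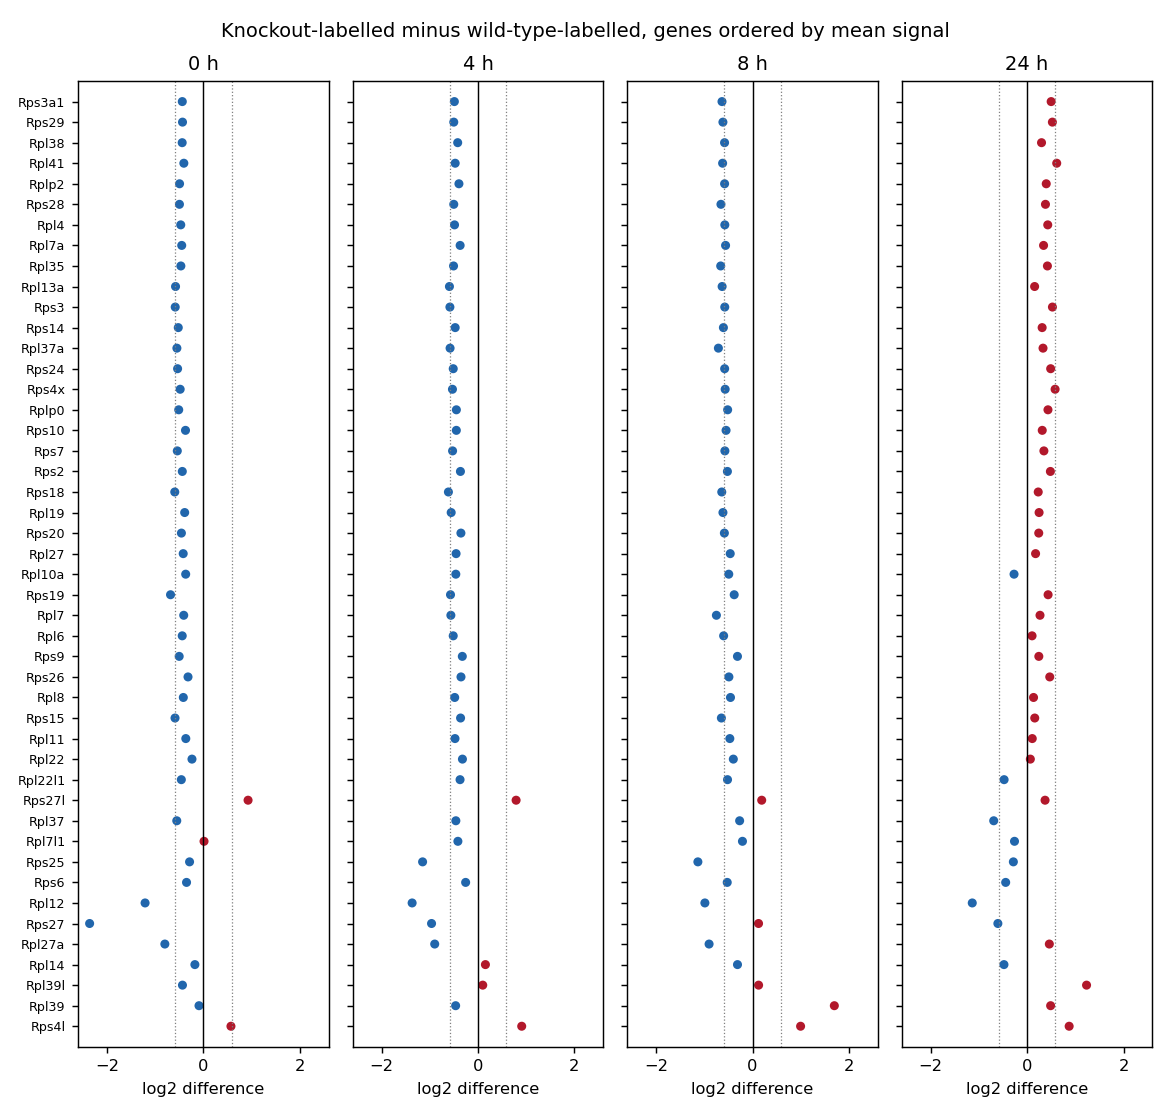
Log2 signal of knockout-labelled minus wild-type-labelled cells (horizontal axis) for each of the 46 genes, ordered from the highest mean signal at the top, in a panel for each time; blue points are below 0, red points above it, and dotted lines mark a 1.5-fold difference. The upper, bright genes form a narrow column left of 0 at 0, 4 and 8 h and right of 0 at 24 h, while the dim genes at the bottom scatter.

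Single genes show how closely the bright members moved. Rps3a1, a small subunit protein read by the brightest probe set, had signals of 38341, 47471, 46810 and 66724 on the knockout-labelled arrays, against 51989, 66707, 72647 and 47222 on the wild-type-labelled arrays. It was the lower in knockout-labelled cells at 0, 4 and 8 h and the higher at 24 h, with log2 differences of -0.44, -0.49, -0.63 and 0.50. The small subunit gene Rps29 had signals of 39391, 45705, 42296 and 61904 in knockout-labelled cells and 53241, 64773, 64775 and 43041 in wild-type-labelled cells. The order of the genotypes was the same as for Rps3a1 at each time. Rpl38, a large subunit protein that in mice also affects which Hox mRNAs are translated, had signals of 39332, 44279, 44527 and 54682 in knockout-labelled cells and 53415, 59305, 66597 and 44443 in wild-type-labelled cells. It too changed order only between 8 and 24 h.

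The stalk, on which translation factors dock, gave the same picture. The stalk base protein gene Rplp0 had signals of 29905, 36104, 36145 and 48887 in knockout-labelled cells, against 42683, 49282, 51719 and 36220 in wild-type-labelled cells. Rplp2, among the small acidic stalk proteins, had 37749, 43843, 43557 and 56249 in knockout-labelled cells and 53239, 57686, 65112 and 42720 in wild-type-labelled cells. Rps19, whose human counterpart is mutated in Diamond-Blackfan anaemia, had 26631, 30671, 33728 and 42628 in knockout-labelled cells and 42760, 45549, 43924 and 31529 in wild-type-labelled cells. Its log2 difference at 0 h, -0.68, was the lowest of the 35 bright genes. Rpl11, which can bind and restrain the p53 regulator Mdm2, had 22680, 24166, 24385 and 29910 in knockout-labelled cells and 29238, 33647, 33811 and 27778 in wild-type-labelled cells. At 24 h the Rpl11 signals of the genotypes were close, unlike those of Rplp0 and Rplp2.

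Both subunits took part. The 21 small subunit genes had median log2 differences of -0.48, -0.49, -0.57 and 0.37 at 0, 4, 8 and 24 h. The 25 tested genes of the large subunit, stalk included, had -0.44, -0.46, -0.56 and 0.25. The difference between the subunits was not tested. Of the 35 bright genes, 34, 34 and 34 were lower at 0, 4 and 8 h and 33 were higher at 24 h. The 11 dim genes tested were less uniform, with 9, 8 and 7 lower at the first 3 times and 4 higher at 24 h.

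Several probe sets of a gene mostly gave the same sign before 24 h. Of the 92 tested probe sets of these genes, 80, 84 and 83 were lower in knockout-labelled cells at 0, 4 and 8 h, and 66 were higher at 24 h. Of the 19 genes with at least 2 tested probe sets, all probe sets shared a sign in 13 at 0 h, 17 at 4 h, 17 at 8 h and 9 at 24 h. Rpl41, the smallest ribosomal protein, shows the disagreement at 24 h: its brightest probe set gave a log2 difference of 0.61 and its 4 probe sets 0.61, 0.46, -0.96 and -0.52. Read only from probe sets whose names end in a plain _at, which were designed to match a single transcript, the median difference at 24 h was -0.13, over 22 genes with 23 such probe sets, of which 5 were bright. All 5 of the bright ones, those of Rpl19, Rpl22, Rpl27, Rplp0 and Rps15, were lower in knockout-labelled cells at 0, 4 and 8 h and higher at 24 h. The same 22 genes read from their brightest probe sets had a 24 h median of 0.24 with 16 higher, against 9 higher on the plain probe sets, a count made after the values were seen. Probe set design and brightness change together in this reading and cannot be told apart.

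The shift also depended on how the arrays were put on a common scale. The deposited arrays share a mean signal, taken without the top and bottom 2%, of 1000.37 to 1000.47, so the brightest probe sets had no part in setting the scale. Quantile normalization gives all arrays the same distribution and so fixes the level of the brightest ranks. After it the median differences were -0.05, -0.06, -0.04 and -0.14 at 0, 4, 8 and 24 h. Lower were 28, 31, 35 and 33 of 46 genes, beside 47.9%, 50.9%, 54.4% and 50.8% of all genes. After division by each array's median the median differences were -0.47, -0.60, -0.64 and 0.04. Then 44, 43 and 41 genes were lower at the first 3 times, beside 48.2%, 56.2% and 58.9% of all genes. At 24 h 21 were lower and 25 higher, where 61.4% of all genes were lower. That division moved the median of all genes by up to -0.19, at 24 h. The 24 h difference is thus near 0 under median division and turned under quantile normalization, which also brings the differences at 0, 4 and 8 h close to 0.

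Other probe sets were compared through the upper percentiles of signal on each array. With all ribosomal probe sets set aside, the 99th percentile of signal was 13375, 14464, 14793 and 16676 on the knockout-labelled arrays and 14010, 15194, 16066 and 15194 on the wild-type-labelled arrays. The knockout-labelled value was the lower at 0, 4 and 8 h and the higher at 24 h, as for the ribosomal protein genes. Lower percentiles did not share that order: the 95th was 5310, 5451, 5594 and 5457 on the knockout-labelled arrays and 5204, 5475, 5423 and 5757 on the wild-type-labelled arrays. The part of array brightness at the top of the scale in the result was not tested. The ribosomal protein genes' share of all signal on an array does not change with a factor applied to that array. It was 3.44%, 3.73%, 3.76% and 4.61% on the knockout-labelled arrays and 4.44%, 4.78%, 5.08% and 3.95% on the wild-type-labelled arrays. The ratio of the shares was 0.776, 0.780, 0.740 and 1.17, and after quantile normalization 0.969, 0.969, 0.961 and 0.939.

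The second comparison followed each genotype over time. In knockout-labelled cells the ribosomal protein genes were highest at 24 h, whereas in wild-type-labelled cells they were higher at 4 and 8 h than at 0 h and lower at 24 h. The median log2 change from 0 h was 0.17, 0.20 and 0.60 at 4, 8 and 24 h in knockout-labelled cells and 0.17, 0.29 and -0.20 in wild-type-labelled cells. At 4 h, 36 of 46 genes were above their 0 h level in both genotypes (21.3% of all genes), and at 8 h 38 were (22.7%). Below it in both genotypes were 7 at 4 h (38.3%) and 3 at 8 h (39.2%). At 24 h only 6 were above it in both (21.8%), while 36 were above 0 h in knockout-labelled cells and below it in wild-type-labelled cells, as were 19.3% of all genes. The genotypes' responses at 24 h differed by a median of 0.75, and 31 of 46 genes responded at least 1.5-fold higher in knockout-labelled cells, where 27.4% of all genes did. None responded at least 1.5-fold lower, against 23.9% of all genes. At 4 h the counts were 1 higher and 1 lower (20.2% and 15.1% of all genes), and at 8 h 2 and 2 (20.1% and 20%). The changes in time depend on scale as the genotype differences do. Divided by array medians, the median changes were 0.29, 0.43 and 0.77 in knockout-labelled cells and 0.41, 0.57 and 0.22 in wild-type-labelled cells. After quantile normalization the median changes at 24 h were -0.02 in knockout-labelled cells and 0.02 in wild-type-labelled cells, and the median difference in response was -0.04.

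**Figure D3:**
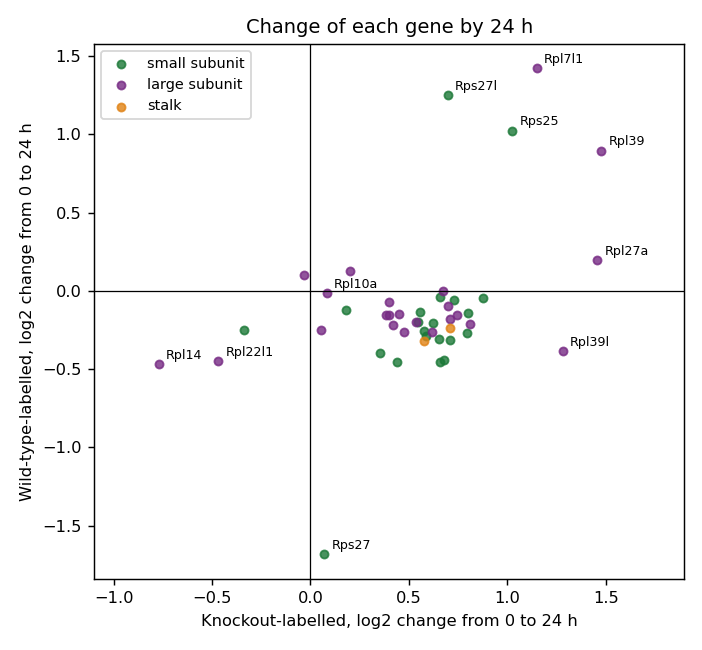
Log2 change from 0 to 24 h of each of the 46 genes in knockout-labelled cells (horizontal axis) and wild-type-labelled cells (vertical axis), with colours for the small subunit, the large subunit and the stalk. Most genes, 36 of 46, lie in the lower right corner, above 0 in knockout-labelled and below 0 in wild-type-labelled cells, and the named genes lie apart.

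Changes shared by both genotypes were tested with limma, with genotype and time in the model and p-values adjusted by Benjamini-Hochberg over all probe sets tested. That fit had 3 residual degrees of freedom, and in simulated data it found 0% of changes of 1 log2 unit and 4% of changes of 1.5. Its error also takes in any course over time that was particular to a genotype. At 24 h, 36 of 46 genes were above 0 h in knockout-labelled cells and below it in wild-type-labelled cells on the deposited scale. Such genes could hardly be called, so the few calls at 24 h do not show that levels were steady. At 4 h, 0 of 46 ribosomal protein genes rose and 0 fell (0.804% and 0.627% of all genes), with 1 and 1 at an unadjusted p under 0.05. At 8 h it was again 0 and 0 (1.18% and 1.25%), with 3 and 1 unadjusted. At 24 h 1 gene rose and 0 fell (1.49% and 2.49% of all genes), with 3 and 0 unadjusted. The gene that rose was Rpl7l1, a relative of Rpl7 that acts in the assembly of the large subunit. Its signals at 0, 4, 8 and 24 h were 2145, 2418, 3405 and 4759 in knockout-labelled cells and 2128, 3230, 3938 and 5705 in wild-type-labelled cells. It was higher at each later time in both genotypes, and the change at 24 h was 1.29 ± 0.21 (SE; limma, adjusted p = 0.0307). This call was lost when any 1 array other than the wild-type-labelled 24 h array was left out. Without the wild-type-labelled 24 h array the change at 24 h rested on the knockout-labelled 24 h array alone, so calls of that fit are not counted.

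Rpl7 itself, the canonical large subunit protein, followed the bulk of the family, with 27195, 30007, 29993 and 43385 in knockout-labelled cells and 36121, 44336, 50452 and 36041 in wild-type-labelled cells. Rps25, a small subunit protein used in initiation from some internal entry sites, had 1556, 1920, 2572 and 3168 in knockout-labelled cells and 1900, 4260, 5646 and 3861 in wild-type-labelled cells. The genotypes were close at 0 h and apart at 4 and 8 h, with log2 differences of -1.15 and -1.13. Its change at 24 h over both genotypes was 1.02 ± 0.31 (SE; limma, adjusted p = 0.124), which did not pass.

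A few genes did not follow the family. Rps27l, a paralogue of Rps27 whose gene is a known p53 target, had signals of 14944, 12145, 12384 and 24248 in knockout-labelled cells, against 7870, 7024, 10859 and 18731 in wild-type-labelled cells. It was higher in knockout-labelled cells at every time, by 0.93, 0.79, 0.19 and 0.37 on the log2 scale, and its 3 probe sets agreed in sign at all times. Measured against the median of the family on the same array, the difference was 1.39, 1.27, 0.73 and 0.11. Under quantile normalization it was 1.02, 0.83, 0.23 and 0.17, and under median division 0.91, 0.66, 0.12 and 0.10. The genotype difference of Rps27l at 0 and 4 h thus kept its direction under every scaling used here. The single-symbol probe set of Rps27, its partner, was dim and irregular, with 445, 418, 1197 and 468 in knockout-labelled cells and 2289, 815, 1098 and 712 in wild-type-labelled cells. The array values show no common course over time for Rps27.

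Rps4l, a paralogue of the X-linked Rps4x, was the other gene that was higher in knockout-labelled cells at all 4 times, and 12.9% of all genes were. Its signals were low throughout, at 357, 397, 399 and 405 in knockout-labelled cells and 240, 212, 200 and 221 in wild-type-labelled cells. The log2 differences were 0.57, 0.91, 1.00 and 0.87. Rps4x, bright and typical of the small subunit, had 30461, 35633, 36004 and 52836 in knockout-labelled cells and 42577, 51458, 53389 and 35330 in wild-type-labelled cells.

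On the low side, 6 genes were below the wild-type-labelled signal at all 4 times: Rpl10a, Rpl12, Rpl22l1, Rpl37, Rps25 and Rps6. They were 13% of the family, beside 14.3% of all genes. Rpl12, Rpl37, Rps25 and Rps6 are among the dim genes that also appear on bright probe sets listing several symbols. Whether their mRNAs departed from the family was not tested. Rpl12, a large subunit protein at the base of the stalk, was the 1 gene at least 1.5-fold lower at each time, as were 1.09% of all genes, and 0 genes of the family were at least 1.5-fold higher at each time (3.61%). It had 787, 743, 1143 and 904 in knockout-labelled cells and 1823, 1916, 2268 and 1990 in wild-type-labelled cells. These signals come from 1 dim probe set, with log2 differences of -1.21, -1.37, -0.99 and -1.14. Rps6, the small subunit protein phosphorylated by S6 kinases downstream of mTOR, had 2324, 2313, 2007 and 1836 in knockout-labelled cells and 2965, 2763, 2890 and 2499 in wild-type-labelled cells. Rpl10a, a large subunit protein, had 30075, 32719, 32946 and 31862 in knockout-labelled cells and 38836, 45024, 46388 and 38447 in wild-type-labelled cells. It was the 1 bright gene besides Rpl22l1 that was still lower at 24 h. Rpl37, also of the large subunit, had 2705, 2388, 3398 and 2640 in knockout-labelled cells and 3972, 3284, 4092 and 4268 in wild-type-labelled cells.

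Rpl22 and Rpl22l1 are paralogues that can stand in for each other in the large subunit, and Rpl22 is needed for normal development of αβ T cells in mice. Rpl22l1 had 16280, 18765, 16808 and 11768 in knockout-labelled cells and 22381, 24294, 24091 and 16383 in wild-type-labelled cells. Both genotypes were lowest at 24 h, and the change over both, -0.46 ± 0.21 (SE; limma, adjusted p = 0.264), did not pass. Rpl22 had 23101, 19316, 19312 and 24011 in knockout-labelled cells and 27251, 24165, 25466 and 22919 in wild-type-labelled cells. Unlike most of the family, Rpl22 was lower at 4 and 8 h than at 0 h in both genotypes. Rpl39l, a paralogue of Rpl39 known from the testis, had 553, 537, 586 and 1345 in knockout-labelled cells and 748, 502, 537 and 572 in wild-type-labelled cells. The knockout-labelled 24 h array stood apart, with a log2 difference of 1.23 at that time, 1.16 after quantile normalization. Rpl39, read from a dim probe set, had 302, 631, 694 and 841 in knockout-labelled cells and 322, 870, 214 and 600 in wild-type-labelled cells, without a steady course in wild-type-labelled cells.

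**Figure D4:**
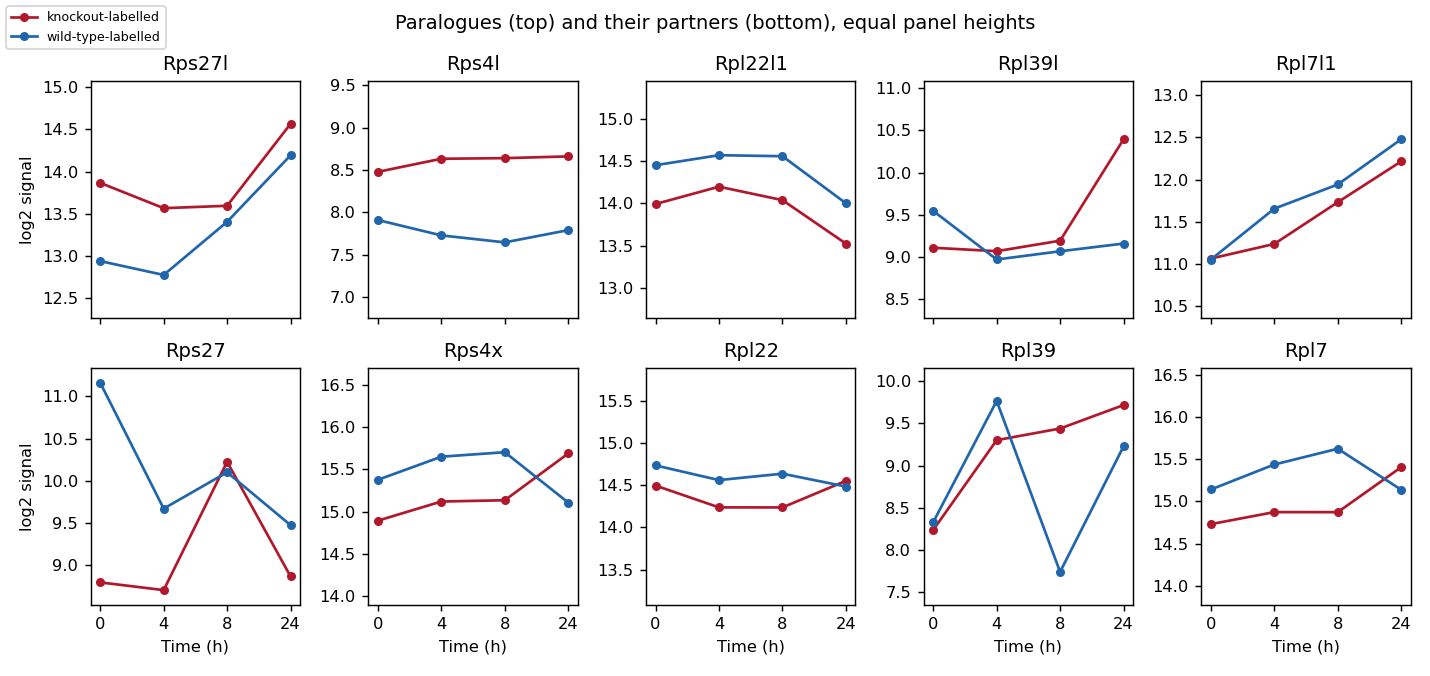
Log2 signal (vertical axis) against time with the antibodies in hours (horizontal axis) for 5 paralogues in the top row and their partners below, knockout-labelled arrays in red and wild-type-labelled arrays in blue, with each panel spanning the same range of log2 units. Rps27l and Rps4l lie higher in red at all 4 times, while Rps4x and Rpl7 cross between 8 and 24 h.

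Since the family moved together, its promoters were read from RefSeq (GRCm38.p6) for the 41 of 47 genes that matched, over 250 bases before to 50 after the start, a window of 300 bases. The ETS-type motif CCGGAAG, on either strand, was in 20 of 41 (48.8%), against 9.93% of 27025 promoters in the table. The pyrimidine tract CTTTCC was in 21 (51.2%, against 29.3%), CTCTTTC in 8 (19.5%, against 9.28%) and CTTTTC in 11 (26.8%, against 24.3%), all on either strand, and CTTTCC and CTCTTTC can overlap. A tract of any of these 3 kinds on the coding strand within 25 bases of the start was in 10 (24.4%), against 5.35%. The YY1-type motif AAGATGG was in 7 (17.1%, against 7.28%), the E-box CACGTG in 4 (9.76%, against 8.09%) and the TATA-type motif TATAA in 13 (31.7%, against 28%). The lines that follow give 2 promoters of bright genes that followed the family, Rpl35 and Rps10, both picked outside the naming rule. They also give those of 3 genes whose probe sets departed from it at some time, of which Rpl12 was read from a dim probe set. Rpl22l1 departed only at 24 h on the deposited scale, with log2 differences of -0.46, -0.37, -0.52 and -0.48 at the 4 times. Each line has 80 bases before and 20 after the start. Capitals mark CTTTCC and CTCTTTC in Rpl35, CCGGAAG and CTTTCC in Rps10, CCGGAAG in Rps27l, TATAA on both strands in Rpl22l1, and CTTTTC in Rpl12. A match describes the letters and is not a binding site, and the recorded start may lie some bases from the start used in these cells.
Rpl35, chr2:39005112-39005211, reverse strand: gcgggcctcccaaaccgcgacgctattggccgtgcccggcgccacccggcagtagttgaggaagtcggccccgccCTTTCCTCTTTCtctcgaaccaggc
Rps10, chr17:27635225-27635324, reverse strand: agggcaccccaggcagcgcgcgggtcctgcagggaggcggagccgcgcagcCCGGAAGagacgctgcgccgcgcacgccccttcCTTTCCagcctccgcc
Rps27l, chr9:66946006-66946105, forward strand: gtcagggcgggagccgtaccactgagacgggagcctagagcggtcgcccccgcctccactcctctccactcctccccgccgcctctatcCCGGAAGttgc
Rpl22l1, chr3:28805428-28805527, forward strand: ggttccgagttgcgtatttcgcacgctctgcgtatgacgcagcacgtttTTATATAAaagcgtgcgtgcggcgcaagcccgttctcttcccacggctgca
Rpl12, chr2:32961632-32961731, forward strand: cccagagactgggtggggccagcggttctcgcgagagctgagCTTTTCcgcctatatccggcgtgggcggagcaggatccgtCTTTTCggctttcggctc
Searched tracts are marked near the start in Rpl35, Rps10 and Rpl12, and in neither Rps27l nor Rpl22l1. Whether the Rpl12 mRNA departed from the family was not tested. These few picked windows therefore do not compare genes that followed the family with genes that did not. The same windows of Rplp2, a bright gene that followed the family, and of Rps6, a dim one, hold none of the exact strings searched. They do not lack pyrimidine runs: cttcctttc lies at the recorded start of Rplp2 and ctctttttc at that of Rps6. In Rpl22l1 ttctcttccc lies just after the start. The search for exact strings leaves such runs out, so its counts are not counts of genes with a TOP tract. No test was made of whether a motif goes with a gene's values.

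The third comparison set the family beside other genes of the translation machinery. Fau and Rpsa, ribosomal proteins whose symbols do not follow the family's naming, had log2 differences of -0.54 and -0.59 at 0 h and of 0.19 and 0.49 at 24 h, the same order of genotypes as the family. Elongation factors and other genes with TOP mRNAs (14 tested) had medians of -0.33, -0.35, -0.50 and 0.04 at 0, 4, 8 and 24 h, with 12, 12 and 14 lower at the first 3 times and 7 higher at 24 h. Among them Eif3h, a subunit of an initiation factor, had differences of -0.59, -0.47, -0.38 and -0.04. Eef1a1, the factor that brings aminoacyl-tRNA to the ribosome, was picked after its values were seen: it had -0.51, -0.43, -0.56 and 0.58. After quantile normalization the medians of the TOP list were -0.06, -0.11, -0.23 and -0.15.

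Factors that build ribosomes in the nucleolus took another course. The 25 tested genes had median differences of 0.23, -0.78, -0.68 and -0.84, with 7, 25, 24 and 24 of them lower in knockout-labelled cells. Gnl3, the nucleolar GTPase nucleostemin, had signals of 3699, 3001, 4831 and 3527 in knockout-labelled cells, against 3062, 9331, 10948 and 8324 in wild-type-labelled cells. Polr1b, a subunit of RNA polymerase I, had 863, 576, 1181 and 825 in knockout-labelled cells and 843, 1624, 2267 and 1989 in wild-type-labelled cells. For both genes the genotypes were close at 0 h and apart at each later time. The list's median change from 0 h was -0.20, 0.39 and 0.07 at 4, 8 and 24 h in knockout-labelled cells and 0.95, 1.31 and 1.24 in wild-type-labelled cells. At 24 h, 24 of 25 of these factors were lower in knockout-labelled cells, where 37 of 46 ribosomal proteins were higher on the deposited scale, 12 after quantile normalization and 25 after division by array medians. By limma 0 of 25 rose and 0 fell at each of the 3 times. At an unadjusted limma p under 0.05, 3, 12 and 8 rose at 4, 8 and 24 h, beside 466, 615 and 649 of all 8457 genes, and 0 fell. The error of that fit takes in the differing courses of the genotypes, so the lack of calls does not show that levels were steady.

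Mitochondrial ribosomal proteins, which serve the separate ribosome of that organelle, also differed from the cytosolic family. The 74 tested genes had median differences of 0.25, 0.16, -0.02 and -0.42, and 18, 29, 40 and 71 of them were lower in knockout-labelled cells. At 24 h nearly all were lower, the opposite sign to most of the cytosolic genes on the deposited scale. After quantile normalization 33 of 46 cytosolic genes were lower, beside 50.8% of all genes. After division by array medians 21 were lower, beside 61.4% of all genes, and 25 were higher, with a median near 0 at 0.04. Mrps6, of the small mitochondrial subunit, had 832, 958, 1512 and 2998 in knockout-labelled cells and 1281, 3251, 3284 and 3776 in wild-type-labelled cells. Mrpl33, of the large one, had 3498, 2496, 2606 and 2141 in knockout-labelled cells and 1516, 1159, 1291 and 2736 in wild-type-labelled cells. Mrps6 was lower in knockout-labelled cells at all 4 times, and Mrpl33 only at 24 h. The differences between lists were not tested.

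**Figure D5:**
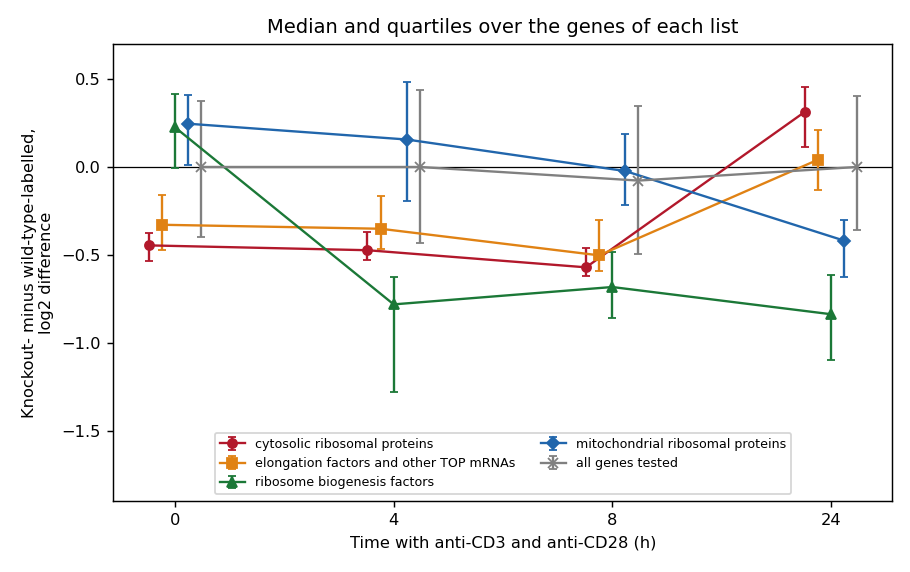
Median log2 difference, knockout-labelled minus wild-type-labelled (vertical axis), at each time (horizontal axis) for the cytosolic ribosomal proteins and 3 related lists, with all genes tested in grey; bars span the quartiles over genes and are not errors. On the deposited scale the cytosolic family ends above 0 at 24 h at 0.31 (-0.14 after quantile normalization), while ribosome biogenesis factors and mitochondrial ribosomal proteins end below it at -0.84 and -0.42.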

How the data were processed

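RNA from 8 samples was hybridised to 8 Affymetrix MOE430A 2.0 arrays, 1 for each genotype and time. The authors deposited 1 intensity per probe set and array, on a linear scale; GCOS 1.4 and MAS5 are named, per the submitters' processing notes, with no role given. Every array's mean without the top and bottom 2% was near 1000, so the values were taken as already scaled and were not rescaled. Of 22690 probe sets, 64 were controls, 20380 had 1 gene symbol, 691 several and 1555 none. Intensities below the 40th percentile over all arrays, 141.88, were set to it and log2 was taken. Probe sets above it on at least 2 arrays (15062) were tested and 8457 genes had a tested probe set.

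Genotypes were compared by size at each time. Changes with time were tested with limma 3.58.1 in R 4.3.3, with genotype and time as terms and Benjamini-Hochberg adjustment over all tested probe sets, on simulated data first. The number of arrays limits the precision: there are no replicates. The spread behind the p-values is what the genotype and time terms leave over. Array noise and a course over time that differs by genotype are mixed in it and cannot be told apart. Members and gene lists were chosen with earlier results of these data known. Genes were named by rule: the 5 highest and 5 lowest mean levels, the 3 most positive and 3 most negative for each genotype difference and change, paralogue pairs, the stalk, binders of Mdm2, Rps6, Rps19, Rpl10a and Rpl38, and 2 genes of each list for either measure. Others are said to be picked later or outside the rule. Alternatives changed the scaling, floor, probe sets per gene, fold, model and arrays used. Promoters were RefSeq's. Figures were drawn with matplotlib 3.10.9 in Python 3.11.15.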

Additional observations from a re-analysis of the deposited data

Results flagged for a closer look

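The median change of the ribosomal protein genes from 0 to 24 h had opposite signs in the genotypes on the deposited scale, at 0.603 in knockout-labelled cells and -0.199 in wild-type-labelled cells, which is a difference of 0.802 on the log2 scale. It was 0.77 in knockout-labelled cells and 0.22 in wild-type-labelled cells after division by array medians, the same sign, and -0.02 and 0.02 in that order of genotypes after quantile normalization. Their median change from 8 to 24 h likewise was 0.353 in knockout-labelled cells and -0.482 in wild-type-labelled cells, a difference of 0.836. Division by array medians gave 0.29 in knockout-labelled cells and -0.34 in wild-type-labelled cells, and quantile normalization -0.02 in knockout-labelled cells and 0.02 in wild-type-labelled cells. The median change of the ribosome biogenesis factors from 0 to 4 h was -0.196 in knockout-labelled cells and 0.946 in wild-type-labelled cells, a difference of -1.14, and the signs were opposite under both other scalings. The mitochondrial ribosomal proteins changed from 0 to 24 h by a median of -0.096 in knockout-labelled cells and 0.623 in wild-type-labelled cells, a difference of -0.719. Under both other scalings the medians were above 0 in both genotypes, at 0.01 and 0.07 in knockout-labelled cells and 0.62 and 1.05 in wild-type-labelled cells for quantile normalization and division by array medians. With 1 array per genotype and time, these differences were not tested.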

How the results depend on the processing

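No paired analysis was possible by replicate number because each genotype and time had a single array. A limma fit of genotype with time as the block takes the 4 times of a genotype as replicates. They share 1 numbered source and are not, so its genotype calls are not counted. Floors at the 20th and 60th percentile changed no direction or call. Quantile normalization brought the genotype medians at 0, 4, 8 and 24 h to -0.0499, -0.057, -0.0379 and -0.138, and the counts at least 1.5-fold lower at 0 and 8 h to 4 and 3. It brought the difference in response to -0.0361 at 8 h and -0.0373 at 24 h, with 3 genes at least 1.5-fold higher at 24 h. The changes with time became -0.0381, -0.00338 and -0.0249. The TOP list became -0.0556, -0.113, -0.226 and -0.154, and the ratio of signal shares 0.969, 0.969, 0.961 and 0.939. Division by array medians gave -0.605 at 4 h and 0.0353 at 24 h. Genes at least 1.5-fold lower were then 28 and 30 at 4 and 8 h, where 43 and 41 of 46 were lower by any amount. Shares of all genes at the 1.5-fold cut are not given for this scaling. The difference in response was -0.128 at 4 h and 0.49 at 24 h, with 18 genes at least 1.5-fold higher at 24 h. Changes with time were 0.349, 0.503 and 0.466, and 24 h medians were -0.237 (TOP), -1.12 (biogenesis) and -0.696 (mitochondrial). Plain _at probe sets alone, which also keep fewer and mostly dim genes, gave a 24 h median of -0.131 over 22 genes. Of these, 10 were at least 1.5-fold lower at 8 h and 2 at least 1.5-fold lower at all times. The difference in response at 24 h was 0.315, with 7 genes at least 1.5-fold higher, and the TOP median at 24 h was -0.208. Shares of all genes are not given for this reading. Rpl41 at 24 h was -0.515 with plain _at probe sets and -0.253 with the median over its probe sets. At 2-fold the counts lower were 2, 2 and 1 at 0, 4 and 8 h, higher at 24 h 1, lower at all times 0 and higher in response 8. The gene that rose at 24 h was lost (0 called) with the median over probe sets, with no genotype term and with no filter. Leaving out 1 array at a time gave median changes of 0.0628 to 0.282 at 4 h, 0.0685 to 0.405 at 8 h and -0.206 (without the knockout-labelled array) to 0.612 (without the wild-type-labelled array) at 24 h, and 0 to 21 genes called at 24 h. Leaving out the pair of arrays of 1 time gave 1 to 3 genes at least 1.5-fold lower and 0 to 1 at least 1.5-fold higher at all remaining times. The 3 lower were found without the 24 h pair. The causes were not tested. Chosen after seeing the data, probe sets with several symbols gave -0.469, -0.489, -0.557 and 0.211, and the bright genes alone -0.458, -0.477, -0.577 and 0.33.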

Other observations

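Genes of the mTOR pathway and the ribosomal protein S6 kinases (12 tested) had median log2 differences, knockout-labelled minus wild-type-labelled, of -0.05, -0.18, -0.31 and -0.49 at 0, 4, 8 and 24 h. Lower were 6, 8, 8 and 9 of the 12, beside 48.4%, 49.2%, 54.3% and 45.5% of all genes. Eif4ebp1, the translation repressor that mTOR inactivates, had signals of 3203, 6826, 7117 and 4465 in knockout-labelled cells and 1922, 4646, 8922 and 6507 in wild-type-labelled cells. It was higher in knockout-labelled cells at 0 and 4 h and lower at 8 and 24 h. Of the Myc network (7 tested), the median differences were 0.00, 0.00, 0.05 and 0.94. The medians at 0 and 4 h were those of Mxd1 and Mycn, each below the floor on both arrays of that time. The list holds both Myc and its antagonist Mxi1, so its median does not stand for either. Mxi1, an antagonist of Myc, had 1837, 1334, 869 and 2543 in knockout-labelled cells and 1072, 955, 543 and 362 in wild-type-labelled cells. Its log2 difference was 2.81 at 24 h, and the 24 h knockout-labelled array was the highest. Myc itself, picked after its values were seen, had 4320, 7348, 7020 and 2962 in knockout-labelled cells and 3225, 16418, 13945 and 7789 in wild-type-labelled cells, the lower in knockout-labelled cells at 4, 8 and 24 h.

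B cell markers (6 tested) had median differences of -0.52, -1.03, -0.66 and -0.32 and red cell markers (7 tested) 0.58, -0.06, -0.02 and -0.15. By limma, 6 of 7 red cell markers, 8 of 13 granulocyte precursor markers, 3 of 10 monocyte markers and 3 of 6 B cell markers fell by 24 h over both genotypes, and 0 of 12 T cell markers rose or fell.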
